A study of Mus musculus and Ictidomys tridecemlineatus with 36 samples.

Results

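Active enhancers that carried both Otx2 and Neurod1 were described in developing retina of the 13-lined ground squirrel (13LGS), a rodent with a cone-dominant retina, and of mouse, whose retina is rod-dominant. They were chosen by peak overlap, separately in each species. An active enhancer was an H3K27ac peak that touched no H3K4me3 peak, and a doubly bound one also touched at least 1 Otx2 peak and at least 1 Neurod1 peak, with an overlap of 1 bp or more. This gave 1657 of 85510 active enhancers in 13LGS (1.94%) and 1631 of 58164 in mouse (2.80%), or 3288 of the 156929 H3K27ac peaks of both species. The other active enhancers comprised 6584 and 4771 with Otx2 only, 657 and 231 with Neurod1 only, and 76612 and 51531 with neither factor, in 13LGS and mouse.

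The profiles were made by CUT&RUN, in which a nuclease tethered by an antibody releases the DNA around its target. Retinas of animals at postnatal day 5 (P5, 13LGS) and postnatal day 2 (P2, mouse), pooled from 2 and 3 individuals per replicate, gave 16 and 20 libraries of untreated tissue. For 13LGS there was 1 library for each of the 3 histone marks, 6 for Otx2, 4 for Neurod1 and 3 for the IgG control antibody. For mouse there were 2 for each mark, 8 for Otx2, 4 for Neurod1 and 2 for IgG. These came from 2 biological replicates per target and species, and from 1 for the 13LGS histone marks, so the further libraries are repeats of the same replicates. Otx2 libraries used 2 antibodies, 4 and 2 libraries each in 13LGS and 4 each in mouse. All libraries of a target entered 1 peak list per species, so no value below has a replicate error, nothing separates the 2 antibodies, and the sequencing depth is unknown. No test was made between the species, which also differed in age and in the number of libraries. In mouse, H3K4me3 lay within 1 kb of a transcription start site (TSS) of all 8 retinal marker genes, of 1 of 4 pigment epithelium genes (*Pmel*) and of 0 of 4 liver genes.

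Otx2 is a homeodomain factor that directs retinal precursors to the photoreceptor and bipolar fates, and Neurod1 is a basic helix-loop-helix factor that acts in photoreceptor differentiation. H3K27ac marks active promoters and enhancers, H3K4me3 marks promoters, and H3K4me1 marks enhancers whether active or poised. Otx2 binds TAATCC and related sites, and Neurod1 binds E-boxes such as CAGATG.

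Reference sequence is shown for 6 mouse enhancers, because it lets the position of these motifs be read against the factor summits, the bases of highest signal within each peak. Each window holds 300 bases of the plus strand of GRCm38, centred between the Otx2 and the Neurod1 summit, so that both summits lie near its middle. Capitals mark TAATCC and CAGATG on either strand, so that they appear as TAATCC or GGATTA and as CAGATG or CATCTG. The window in *Sorcs3* (chr19:48755403-48755702) belongs to the enhancer with the best combined rank of the factor folds. The window in *Bcl2l1* (chr2:152804526-152804825) has the third rank and is the first of those with summits within 50 bp of each other to hold both motifs, and the one in *Shroom3* (chr5:92918046-92918345) is the next, a choice made after the sequences were seen. The last 3 lie nearest to *Otx2* (chr14:48593534-48593833), *Neurod4* (chr10:130281972-130282271) and *Casz1* (chr4:148916035-148916334), genes of photoreceptor transcription factors. None of the windows touches an annotated exon.
Sorcs3 enhancer: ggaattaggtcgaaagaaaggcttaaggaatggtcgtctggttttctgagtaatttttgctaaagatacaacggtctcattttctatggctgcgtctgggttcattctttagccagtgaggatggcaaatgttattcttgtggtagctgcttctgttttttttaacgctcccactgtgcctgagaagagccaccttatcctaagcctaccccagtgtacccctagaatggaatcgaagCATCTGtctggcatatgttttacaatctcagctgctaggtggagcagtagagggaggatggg
Bcl2l1 enhancer: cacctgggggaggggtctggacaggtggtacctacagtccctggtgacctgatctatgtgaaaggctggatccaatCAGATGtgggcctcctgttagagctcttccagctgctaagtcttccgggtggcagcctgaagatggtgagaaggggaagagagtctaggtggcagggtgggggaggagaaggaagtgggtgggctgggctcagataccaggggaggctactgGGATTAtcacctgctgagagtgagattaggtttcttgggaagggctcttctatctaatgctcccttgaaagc
Shroom3 enhancer: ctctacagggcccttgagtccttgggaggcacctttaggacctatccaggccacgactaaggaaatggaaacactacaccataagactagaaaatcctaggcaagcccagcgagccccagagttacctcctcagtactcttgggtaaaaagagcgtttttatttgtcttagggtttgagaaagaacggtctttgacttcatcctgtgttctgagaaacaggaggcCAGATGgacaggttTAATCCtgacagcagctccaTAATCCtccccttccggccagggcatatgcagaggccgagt
Otx2 enhancer: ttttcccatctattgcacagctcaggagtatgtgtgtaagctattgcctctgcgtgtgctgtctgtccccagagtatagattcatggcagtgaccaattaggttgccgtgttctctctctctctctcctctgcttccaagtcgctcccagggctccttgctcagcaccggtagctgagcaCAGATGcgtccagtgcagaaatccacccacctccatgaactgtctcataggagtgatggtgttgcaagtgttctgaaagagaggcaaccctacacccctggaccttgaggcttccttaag
Neurod4 enhancer: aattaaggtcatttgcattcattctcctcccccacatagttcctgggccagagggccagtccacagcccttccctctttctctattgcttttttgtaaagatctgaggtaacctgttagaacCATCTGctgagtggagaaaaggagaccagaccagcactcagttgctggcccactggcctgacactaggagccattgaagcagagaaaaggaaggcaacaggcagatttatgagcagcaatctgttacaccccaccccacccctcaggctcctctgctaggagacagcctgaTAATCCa
Casz1 enhancer: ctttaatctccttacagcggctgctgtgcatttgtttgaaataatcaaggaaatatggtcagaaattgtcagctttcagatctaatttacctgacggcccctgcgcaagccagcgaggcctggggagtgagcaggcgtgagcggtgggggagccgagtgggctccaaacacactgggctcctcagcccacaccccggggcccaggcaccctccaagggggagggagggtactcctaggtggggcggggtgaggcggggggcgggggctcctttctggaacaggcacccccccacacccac

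In none of these windows do the motifs lie on the summits. The nearest CAGATG to the Neurod1 summit was 88 bp away in *Sorcs3*, 78 bp in *Bcl2l1*, 77 bp in *Shroom3*, 31 bp at *Otx2* and 27 bp at *Neurod4*, measured to the fourth base of the motif. In other windows, not shown, it was 15 bp away at *Rorb*, 35 bp at *Scarb1* and 53 bp at *Nr2e3*. Those at *Nrxn3* and *Prdm1*, also not shown, held no CAGATG. The nearest TAATCC to the Otx2 summit was 87 bp away in *Bcl2l1*, 93 bp in *Shroom3* and 147 bp at *Neurod4*. The windows in *Sorcs3* and at *Otx2* hold no TAATCC, and the one in *Casz1* holds neither motif, although its folds were 15.9 for Otx2 and 12.6 for Neurod1.

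Doubly bound enhancers had wider H3K27ac peaks than any other group. Their median width was 1861 bp in 13LGS and 1332 bp in mouse, against 1302.5 and 996 bp with Otx2 only, 933 and 808 bp with Neurod1 only, and 412 and 396 bp with neither factor. The median H3K27ac fold, the enrichment over IgG at the summit, was 4.92 (interquartile range 3.59 to 6.65) in 13LGS and 4.47 (3.47 to 6.16) in mouse. With Otx2 only it was 4.41 and 4.21, with Neurod1 only 3.60 and 3.85, and with neither 3.12 and 3.31. The doubly bound group thus stood 1.58 and 1.35 times above the group with neither. Of the 1% of active enhancers with the highest H3K27ac fold, 146 of 855 in 13LGS (17.1%) and 107 of 581 in mouse (18.4%) were doubly bound. All of these values describe lists that the choice of regions used, and a wide peak has more room to touch a factor peak.

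The difference in H3K27ac fold was smaller within bins of width. Doubly bound enhancers made up 0.369% of the active enhancers under 500 bp and 12.9% of those of 2000 bp or more in 13LGS, and 0.787% and 17.6% in mouse. Under 500 bp their median fold was 2.97 in 13LGS and 3.12 in mouse, against 2.90 and 3.12 with neither factor. At 2000 bp or more it was 6.48 in both species, against 5.55 and 5.77 with neither factor and 6.76 and 6.60 with Otx2 only. The plot of H3K27ac fold by peak width shows the doubly bound and the Otx2-only groups close to each other in every bin.

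**Figure D1:**
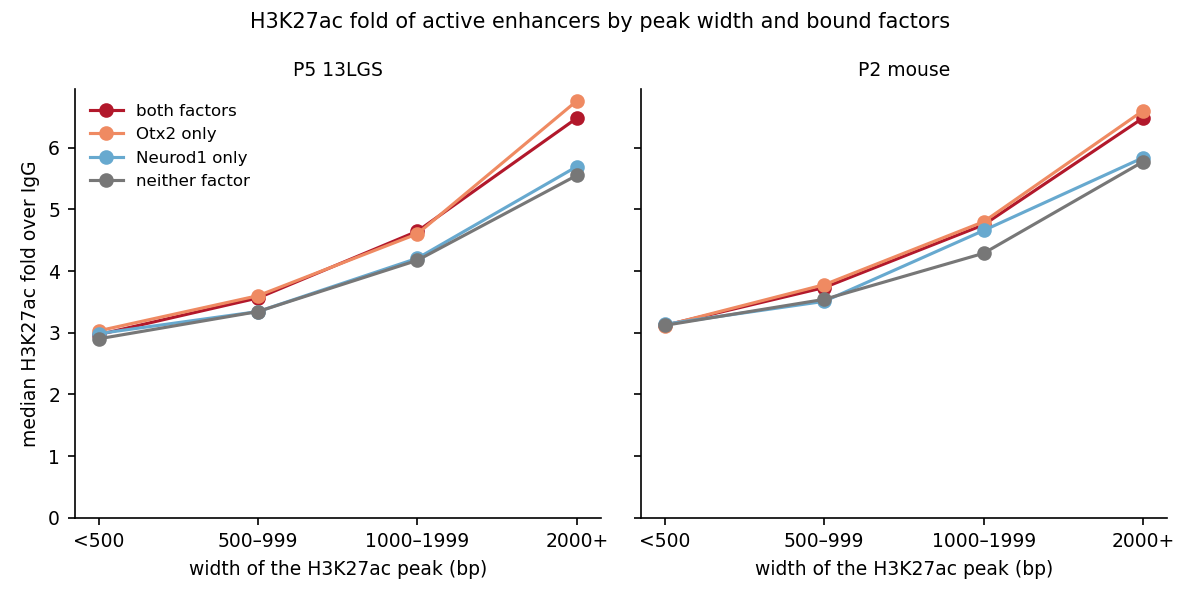
Median H3K27ac fold over IgG (y axis) of active enhancers in 4 bins of H3K27ac peak width (x axis, in bp), for 13LGS (left) and mouse (right), with 1 line for each group of bound factors. The lines of enhancers with both factors and with Otx2 only rise together, from 2.97 and 3.03 under 500 bp to 6.48 and 6.76 at 2000 bp or more in 13LGS.

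H3K4me1, which the choice of regions did not use, was found at nearly all doubly bound enhancers. In 13LGS 1635 of 1657 touched an H3K4me1 peak (98.7%, 95% Wilson interval 98.0 to 99.1) and in mouse 1620 of 1631 (99.3%, 98.8 to 99.6). Over all active enhancers the share was 68.3% in 13LGS and 57.3% in mouse, and with neither factor 64.9% and 52.0%. With Otx2 only it was 97.5% and 98.5%, near that of the doubly bound group. The contrast with the group lacking both factors was widest among narrow peaks. Under 500 bp, the share was 93.8% (89.2 to 96.5) against 52.5% in 13LGS and 97.8% (95.2 to 99.0) against 40.8% in mouse. At 2000 bp or more, all 769 and all 530 doubly bound enhancers carried H3K4me1, against 99.0% and 95.1% with neither factor. The intervals treat peaks as independent and cover counting error only. The 22 and 11 doubly bound enhancers without H3K4me1 were narrow, with a median width of 498.5 and 482 bp.

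The H3K4me1 fold, taken from the strongest overlapping peak, was lower at doubly bound than at Otx2-only enhancers. Its median was 8.53 at doubly bound enhancers and 10.9 at Otx2-only enhancers in 13LGS, and 9.62 and 12.2 in mouse, a ratio of 0.783 and 0.788. It was lower than with Otx2 only in each of the 4 width bins of both species. Under 500 bp it was 6.05 against 7.39 in 13LGS and 8.04 against 10.1 in mouse, and at 2000 bp or more 10.2 against 14.0 and 11.4 against 14.3. With Neurod1 only the overall median was 5.43 and 8.21, and with neither factor 6.93 and 8.44, both below the doubly bound group. Within the wide bins the group with neither was the higher one, at 8.79 against 8.15 and 10.7 against 9.56 from 1000 to under 2000 bp and at 11.6 against 10.2 and 13.1 against 11.4 for 2000 bp or more. The H3K4me1 peaks were of like width, with medians of 3229 bp at doubly bound and 3313.5 bp at Otx2-only enhancers in 13LGS and of 3492.5 and 3538 bp in mouse. The Otx2 summit lay inside an H3K4me1 peak at 97.4% and 97.7% of the doubly bound enhancers. The summit of the strongest H3K4me1 peak was a median of 303 and 310 bp away from it, against 255 and 295 bp at Otx2-only enhancers.

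**Figure D2:**
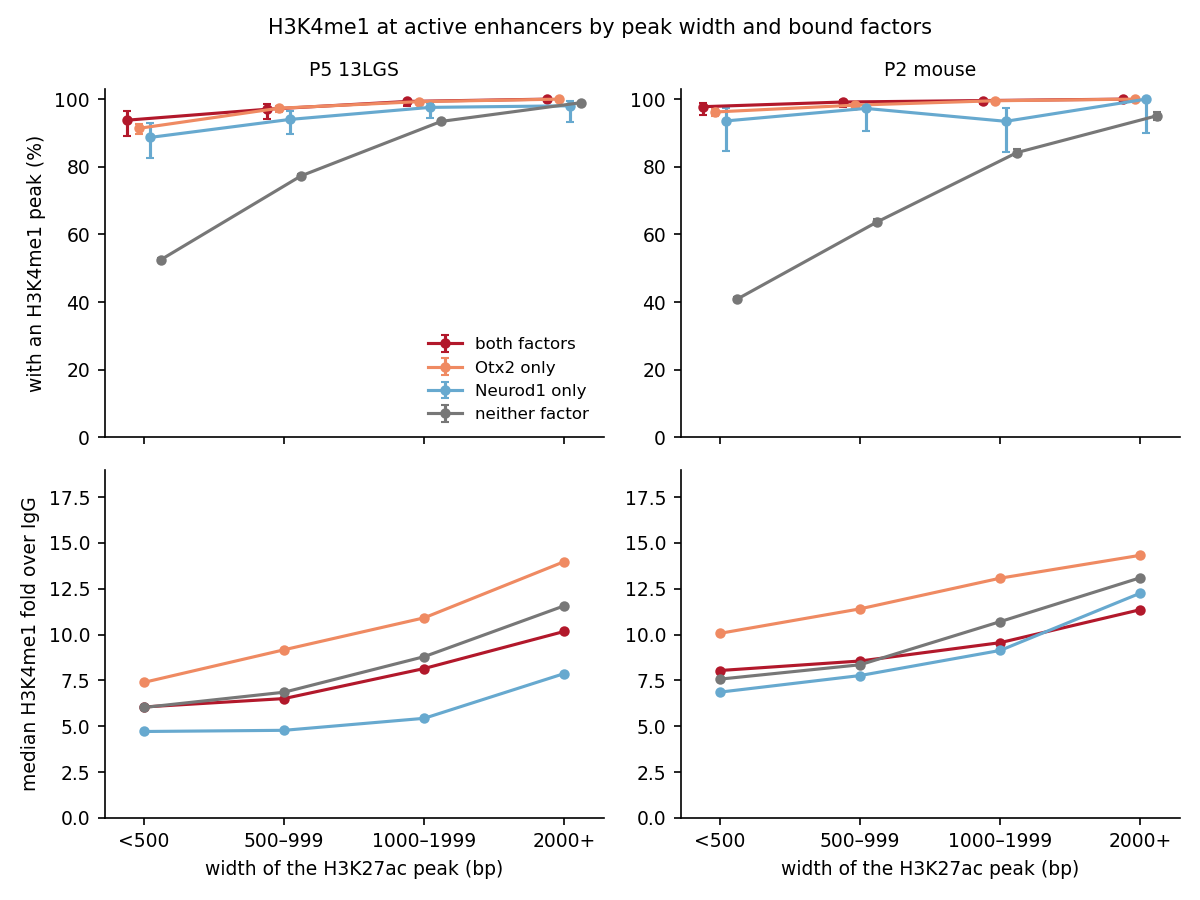
Share of active enhancers with an H3K4me1 peak (upper panels, in %, with 95% Wilson intervals) and the median H3K4me1 fold over IgG of those that had one (lower panels), by H3K27ac peak width (x axis, in bp) and bound factors. Under 500 bp the share was 93.8% and 97.8% with both factors against 52.5% and 40.8% with neither, and in the lower panels the line for both factors stays below that for Otx2 only in every bin.

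Doubly bound enhancers held a small part of the Otx2 list and a large part of the Neurod1 list. They contained 1935 of 27993 Otx2 peaks in 13LGS (6.91%) and 1728 of 29115 in mouse (5.94%), but 1724 of 4658 Neurod1 peaks (37.0%) and 1645 of 4744 (34.7%). The median Otx2 fold was 3.498 in them and 3.12 over the other Otx2 peaks in 13LGS, and 5.03 and 3.49 in mouse. The median Neurod1 fold was 4.13 and 3.29 in 13LGS, and 4.44 and 3.55 in mouse. Taking the strongest Otx2 peak of each enhancer, the median was 3.72 at doubly bound and 3.17 at Otx2-only enhancers in 13LGS and 5.34 and 3.56 in mouse. These folds belong to the lists that chose the regions and are given as a description.

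Across doubly bound enhancers the folds of the 2 factors rose together weakly, with a Spearman rho of 0.301 over 1657 enhancers in 13LGS and 0.352 over 1631 in mouse. Both folds were computed over the same IgG libraries. In the lowest and the highest 25% by Otx2 fold, the median Neurod1 fold was 3.73 and 5.25 in 13LGS and 3.85 and 6.12 in mouse. The Neurod1 fold was nearly unrelated to the H3K27ac fold, with a rho of 0.059 and 0.052, whereas the width of the H3K27ac peak had a rho of 0.735 and 0.721 with it. These correlations are across regions of 1 pooled list each and carry no test.

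Single regions with high factor folds had either high or low acetylation. In 13LGS (coordinates on HiC_Itri_2) the region of best combined rank by factor folds was Itri7:35887843-35894364, with an Otx2 fold of 22.0, the highest at these enhancers, a Neurod1 fold of 19.5 and an H3K27ac fold of 9.07, 155th of the 1657. The next had folds of 20.3 for Otx2 and 20.2 for Neurod1 and an H3K27ac fold of 2.17, 1635th in order. The highest H3K27ac fold, 21.7, was found on Itri1 at a region with an Otx2 fold of 8.20 and a Neurod1 fold of 5.70.

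In mouse the best rank belonged to the enhancer in an intron of *Sorcs3*, a sorting receptor gene, at chr19:48755150-48756415. Its folds were 37.2 for Otx2, 41.6 for Neurod1, the highest at these enhancers, and 7.48 for H3K27ac. The next was a region in an intron of the synaptic adhesion gene *Nrxn3* at chr12:89074825-89075449, with factor folds of 38.1 and 20.2 and an H3K27ac fold of 3.16, 1347th of 1631. The region in an intron of *Bcl2l1*, which encodes an inhibitor of apoptosis, had factor folds of 20.9 and 32.6. The 4th and 5th regions lay nearest to *Cplx2* (19.5 and 32.7), a complexin gene, and in an intron of *Dscam* (21.5 and 20.5), a cell adhesion gene, where the H3K27ac fold was 13.6. The 3 highest H3K27ac folds, 21.7, 19.4 and 18.0, were nearest to *Sh3bgrl2*, *Lrrc49* and *Rasa3*, and the Otx2 folds there were between 4.02 and 6.07.

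The summits of the 2 factors lay close together. The median distance between the summits of the strongest Otx2 and the strongest Neurod1 peak of an enhancer was 72 bp (interquartile range 30 to 224) in 13LGS and 57 bp (21 to 195.5) in mouse. They lay within 50 bp of each other at 39.3% and 45.6% of the enhancers and within 200 bp at 72.6% and 75.2%, and more than 1000 bp apart at 81 and 52. At least 1 Otx2 peak and 1 Neurod1 peak of the enhancer, not always the strongest, touched each other at 1593 (96.1%) and 1617 (99.1%). The distances were not spread evenly beyond the first peak. In mouse the share fell to 1.29% in the bin from 175 bp and was 2.82% in the bin from 275 bp, while in 13LGS the same bins held 2.90% and 2.47%. The 25% of enhancers with the highest Neurod1 fold had a median distance of 48.5 bp in 13LGS and 38 bp in mouse, against 134 and 92.5 bp for the 25% with the lowest.

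**Figure D3:**
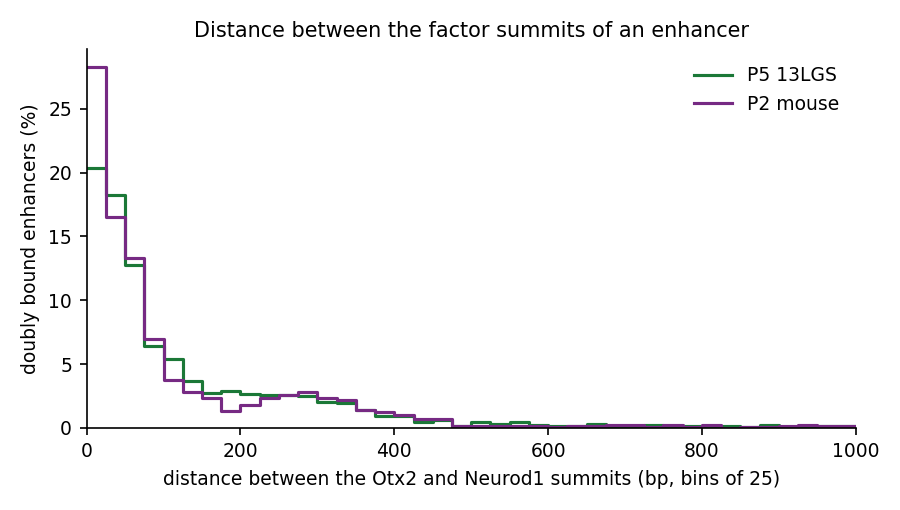
Share of doubly bound enhancers (y axis, in %) by the distance between the Otx2 and the Neurod1 summit (x axis, in bp, bins of 25 bp up to 1000 bp), for 13LGS and mouse. The first bin holds 20.4% of the enhancers in 13LGS and 28.3% in mouse, and the mouse line has a low at 175 to 200 bp and a second rise around 275 bp.

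Summits were also close at touching Otx2 and Neurod1 peaks outside the doubly bound enhancers. Touching by itself limits how far apart the summits can lie, so the medians below are a description only. Of all Neurod1 peaks that touched an Otx2 peak, 55.9% of 2909 in 13LGS and 41.6% of 3895 in mouse lay in doubly bound enhancers. Another 24.9% and 30.1% lay in H3K4me3 peaks, with a median summit distance of 77 and 85 bp, and 12.3% and 25.03% in H3K4me1 peaks without the other marks, at 70 and 63 bp. In the doubly bound enhancers the median over the same kind of pair was 64 and 56 bp.

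The factor summits did not coincide with the H3K27ac summit, from which Otx2 was a median of 264 and 249 bp away and Neurod1 256 and 236 bp. Both factor summits lay inside the H3K27ac peak at 1478 enhancers in 13LGS (89.2%) and 1344 in mouse (82.4%). At 53 (3.20%) and 122 (7.48%) both lay outside any H3K27ac peak, so that the factor peaks reached over its edge. A few neighbouring enhancers touched the same strongest factor peaks (32 in 13LGS, 72 in mouse), which left 1641 and 1595 distinct pairs.

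In mouse, the motifs were most frequent beside the summits. Around the Otx2 summits of doubly bound enhancers TAATCC occurred at 0.190 sites per kb within 50 bp, at 1.69 between 100 and 150 bp and at 0.368 between 450 and 500 bp. Around their Neurod1 summits CAGATG occurred at 1.01, 4.02 and 0.865 sites per kb at the same distances. Both rates peaked 100 to 200 bp from the summit. At H3K27ac summits of enhancers with neither factor TAATCC stayed between 0.332 and 0.408 sites per kb over all distances. Otx2-only enhancers had the same form around their Otx2 summits, with 0.296 sites per kb within 50 bp and 1.47 between 100 and 150 bp. The search covered both strands, TAATCC and CAGATG can overlap by at most 1 base, and a match is a description of letters rather than of a bound site.

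**Figure D4:**
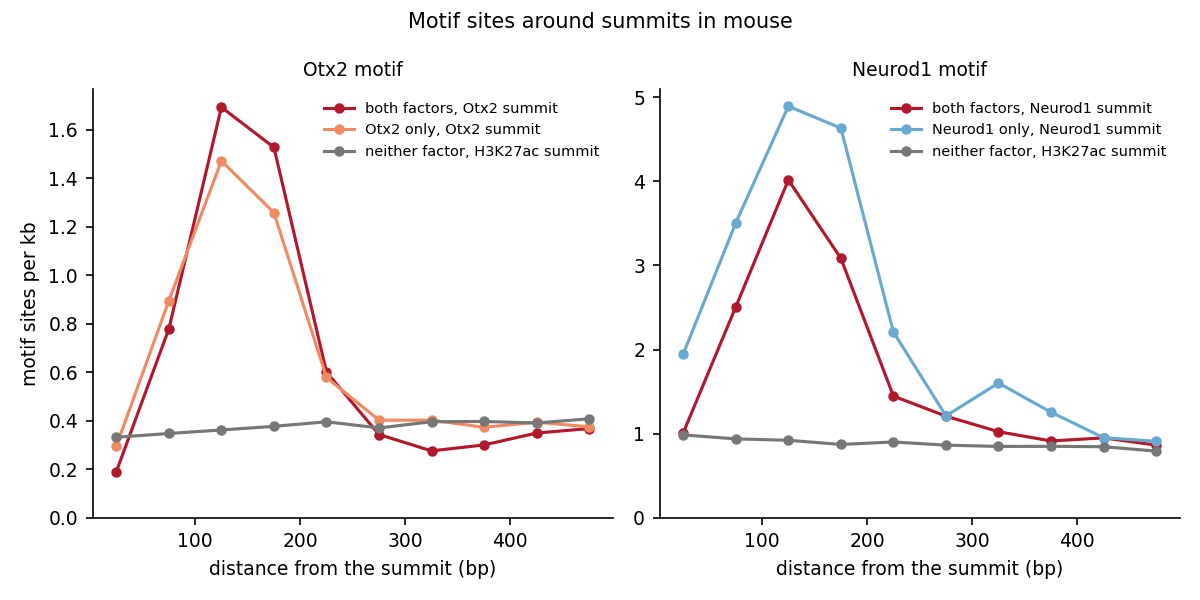
Motif sites per kb (y axis) by distance from the summit (x axis, in bp, in bins of 50 bp, both sides together) for the Otx2 motif TAATCC (left) and the Neurod1 motif CAGATG (right) in mouse, with 1 line for each group of active enhancers. At doubly bound enhancers the rates rise from 0.190 and 1.01 within 50 bp to 1.69 and 4.02 between 100 and 150 bp, while the lines for enhancers with neither factor, centred on H3K27ac summits, stay nearly flat.

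Counted per enhancer, 381 of 1631 Otx2 summits had TAATCC within 150 bp (23.4%, 21.4 to 25.5), against 18.3% of all 29115 Otx2 summits, 22.7% at Otx2-only enhancers and 9.73% of windows of the same 301 bases around H3K27ac summits of enhancers with neither factor. CAGATG was within 150 bp of 917 Neurod1 summits (56.2%, 53.8 to 58.6), against 52.3% of all 4744 Neurod1 summits, 66.2% at Neurod1-only enhancers and 24.6% of the windows with neither factor. The motif of the other factor differed more between the groups, which were themselves chosen by the peaks of that factor. At doubly bound enhancers the 2 summits were a median of 57 bp apart, so their windows mostly share bases, and the difference is a description. CAGATG lay within 150 bp of 46.4% (43.9 to 48.8) of the Otx2 summits of doubly bound enhancers, against 27.1% (25.8 to 28.3) at Otx2-only enhancers. TAATCC lay near 19.01% (17.2 to 20.98) of the Neurod1 summits of doubly bound enhancers, against 7.79% (4.99 to 11.98) at Neurod1-only enhancers. Another E-box, CAGCTG, was within 150 bp of 39.9% of the Neurod1 summits of doubly bound enhancers and 17.7% of the windows with neither factor. It was also near 36.7% of the Otx2 summits of doubly bound and 24.9% of those of Otx2-only enhancers. The windows with neither factor were centred on H3K27ac summits. Around the H3K27ac summits of doubly bound enhancers the gaps to them were smaller, with TAATCC at 13.4%, CAGATG at 38.2% and CAGCTG at 30.2%. The median GC content of the windows around the Otx2 summits was 51.8% at doubly bound and 49.2% at Otx2-only enhancers, and 45.5% with neither factor. Its part in the motif shares was not tested.

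A TAATCC or a CAGATG within 150 bp was found at 967 Otx2 summits of doubly bound enhancers (59.3%) and both at 170 (10.4%), so that 664 (40.7%) had neither. Summits with a motif had the higher folds. Otx2 summits with TAATCC had a median Otx2 fold of 6.63 and those without it 5.01, and the motif was present at 63 of the 408 with the lowest and 142 of the 408 with the highest folds (15.4% and 34.8%). Neurod1 summits with CAGATG had a median Neurod1 fold of 4.79 against 4.19, and the motif was present at 204 of the 408 with the lowest and 269 of the 408 with the highest folds. The median H3K27ac fold was 4.44 with and 4.47 without TAATCC. Among the 743 enhancers whose summits were within 50 bp of each other, 209 had both motifs within 250 bp of the point between the summits. The nearest sites were on the same side of that point in 113 and on opposite sides in 96, and the median distance between them was 126 bp.

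Mouse doubly bound enhancers were mostly distal but nearer to genes than most active enhancers. The median distance from their centre to the nearest TSS of a protein-coding gene was 25255 bp, against 35360 bp with Otx2 only, 21227 bp with Neurod1 only and 50865 bp with neither factor. Of the doubly bound enhancers 61 (3.74%) lay within 1 kb and 1207 (74.0%) more than 10 kb away, against 1.99% and 84.6% of all active enhancers. By their centre, 873 (53.5%) were in an intron of a protein-coding gene, 564 (34.6%) outside genes, 22 (1.35%) in coding exons and 36 (2.21%) in UTRs. Over all active enhancers these shares were 60.9%, 28.8%, 1.72% and 2.18%, and with Otx2 only 52.5%, 35.6%, 1.57% and 1.66%. The doubly bound enhancers had 1214 nearest genes, 5.56% of the 21829 protein-coding genes. Of these genes 954 had 1 enhancer, 171 had 2 and 89 had 3 or more. An H3K4me3 peak lay within 1 kb of a TSS of 77.5% of the nearest genes and of 55.5% of all protein-coding genes. The same share was not computed for genes nearest to other active enhancers.

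The gene with the most doubly bound enhancers was *Gse1*, a gene for a chromatin-associated coregulator, with 15 of its 34 active enhancers, spread from 928 bp to 107365 bp from a TSS. Its strongest, at chr8:120334452-120337189, had an Otx2 fold of 21.1 and a Neurod1 fold of 16.4. *Casz1*, a zinc finger factor of retinal progenitors and photoreceptors, had 9 of 43. *Klhl29* had 6 of 65. *Lcorl*, *Cstad*, *Tbc1d22a*, *Rps24*, *Slc4a5*, *Scarb1*, *Sipa1l3* and *Prex1* had 5 each, which was 5 of 9 at *Slc4a5*, a bicarbonate transporter gene, and 5 of 46 at *Prex1*, an activator of Rac. Regions were assigned to genes by the nearest TSS only, and some were far away. Those of *Lcorl* lay 151422 to 344296 bp from it and those of *Tbc1d22a* reached 577134 bp, whereas those of *Slc4a5* reached 30989 bp. A doubly bound neighbour within 10 kb was found for 358 enhancers in mouse (21.9%) and for 263 in 13LGS (15.9%). Otx2-only enhancers, which were more numerous, had one of their own kind in 24.8% and 25.9%.

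Among the 13 gene lists, photoreceptor transcription factors had the most doubly bound enhancers in mouse. They were nearest to 24 of the 1631 (1.47%), and to 0.545% of the Otx2-only enhancers, 3 of the 231 with Neurod1 only (1.299%) and 0.439% of those with neither factor. These 24 belonged to 6 of the 20 genes. *Casz1* had 9, *Prdm1* and *Otx2* had 4 each, *Neurod4* and *Nr2e3* had 3 each, and *Rorb* had 1.

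Around *Otx2* itself all 4 regions were between 46408 and 82281 bp from the TSS. Their Otx2 folds were 11.6, 14.7, 5.69 and 18.9 and their Neurod1 folds 8.89, 12.7, 4.11 and 6.25, in order along the chromosome. The H3K27ac folds of the same regions were 6.02, 2.76, 5.19 and 2.41. In 3 of them the summits were 4, 4 and 10 bp apart, and in the first 317 bp. The highest Otx2 fold was at the region with the lowest H3K27ac fold, which was 232 bp wide and had both factor summits beyond its edge.

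At *Prdm1*, a zinc finger repressor that favours photoreceptor over bipolar fate, 4 intronic regions had Otx2 folds of 9.30, 15.4, 18.0 and 9.75 and Neurod1 folds of 4.18, 6.44, 2.94 and 4.24. At *Neurod4*, a basic helix-loop-helix gene related to *Neurod1*, the region 2349 bp from the TSS had an Otx2 fold of 20.03 and a Neurod1 fold of 6.91. The other 2 regions there had Otx2 folds of 8.46 and 6.02 and Neurod1 folds of 4.01 and 4.71. At *Nr2e3*, a nuclear receptor of rods that represses cone genes, a pair of the 3 regions touched the same factor peaks, with folds of 5.15 and 5.80, whose summits lay outside both. The third, 36506 bp away, had folds of 10.6 and 9.63. The single region at *Rorb*, a nuclear receptor required for rod development, had folds of 5.22 and 4.50.

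At *Casz1* a pair of H3K27ac peaks, chr4:148911917-148915843 and chr4:148916448-148919130, shared 1 Otx2 and 1 Neurod1 peak with folds of 15.9 and 12.6. Both summits, at 148916183 and 148916187, were in the gap between the acetylated regions, in the window printed above. The other 7 regions had Otx2 folds between 2.35 and 7.08, and in the widest, of 11375 bp, the 2 summits were 6145 bp apart.

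**Figure D5:**
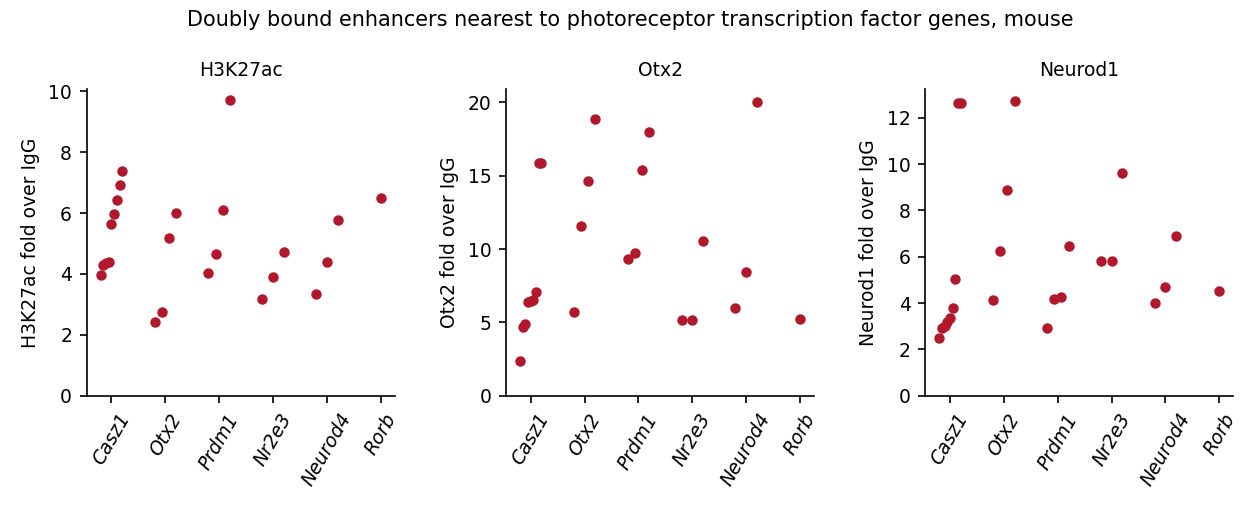
H3K27ac, Otx2 and Neurod1 fold over IgG (y axes) of each mouse doubly bound enhancer whose nearest gene was a photoreceptor transcription factor gene (x axis), with 1 point per enhancer. The highest Otx2 folds, 20.03, 18.9 and 18.0, are at *Neurod4*, *Otx2* and *Prdm1*, and the highest Neurod1 folds, 12.7 and 12.6, at *Otx2* and *Casz1*.

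The other 14 genes of that list had no doubly bound enhancer nearest to them, among them *Crx*, *Neurod1* and *Nrl*. An H3K27ac peak with both factors lay within 1 kb of the TSS of these 3 genes and of *Nr2e3*, but it also touched H3K4me3 and so fell outside the choice. Both factors lay within 1 kb of a TSS of 5 of the 20 genes and of 5.03% of all protein-coding genes.

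No gene of rod phototransduction (20 genes) or cone phototransduction (15 genes) was nearest to a doubly bound enhancer, against 5.56% of all protein-coding genes. In lists this short a count of 0 is close to that share and is not read as an absence. Of the Otx2-only enhancers 8 (0.168%) and 1 (0.0210%) were nearest to such a gene, of a group of 4771. Of those with neither factor 38 (0.0737%) and 14 (0.0272%) were. Otx2 lay within 1 kb of a TSS of 14 and 10 of these genes and both factors at 2 in each list. Of 24 cilium genes 5 had a doubly bound enhancer, among them *Tulp1* with 3 and *Prom1*, *Bbs4* and *Rpgrip1* with 1 each. The 7 regions of that list were 0.429% of the doubly bound, 0.272% of the Otx2-only and 0.233% of the enhancers with neither factor. The regions at *Rpgrip1*, 2813 bp from the TSS, and at *Prom1* had high folds, of 17.6 and 9.84 for Otx2 and 12.3 and 18.8 for Neurod1. Of 18 ribbon synapse genes 4 had one, comprising *Ctbp2* with 3 and *Cplx3*, *Elfn1* and *Pclo* with 1 each. These 6 regions were 0.368% of the doubly bound enhancers, close to 0.314% with Otx2 only and 0.326% with neither factor. The region at the complexin gene *Cplx3* had an Otx2 fold of 10.5 and a Neurod1 fold of 14.1.

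Genes of neurogenesis also had doubly bound enhancers. Of the 17 proneural genes 4 did, with 3 regions at *Insm1*, 3 at *Neurod4*, 2 at *Nhlh1* and 1 at *Hes6*, and the 9 made up 0.552% of the doubly bound enhancers, against 0.356% with Otx2 only, 0.433% with Neurod1 only and 0.0757% with neither factor. The gene lists share some genes, so their counts are not separate. The *Neurod4* regions were also counted with the photoreceptor transcription factors, and the *Hes6* region with the Notch pathway. Of the 24 genes of the Notch pathway 7 had 1 each, among them the receptor *Notch1*, the ligand *Dll1* and the effectors *Hes6* and *Hey1*. These were 0.429% of the doubly bound enhancers, near the 0.398% with Otx2 only and above the 0.169% with neither factor. Of 20 progenitor and eye field genes 6 had 1 each, including *Nfib*, *Sox2*, *Sox9* and *Lhx2*, whereas 45 Otx2-only enhancers were nearest to genes of that list. In percent of each group these were 0.368% and 0.943%, with 0.192% for neither factor.

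Genes of other cell types were nearest to few regions each. Among bipolar cell genes *Lhx4* had 1 region, with an Otx2 fold of 6.97 and a Neurod1 fold of 2.81. Of 24 ganglion, amacrine and horizontal cell genes 4 had 6 regions, comprising 3 at the glycine transporter gene *Slc6a9* and 1 each at *Onecut1*, *Ebf3* and *Meis2*. These 6 were 0.368% of the doubly bound enhancers, against 0.231% with Otx2 only and 0.149% with neither factor. Of 16 Müller glia genes only *Sox9* had a region (0.0613% of the doubly bound enhancers), against 22 Otx2-only enhancers in that list (0.461%). Pigment epithelium genes had 0, and of 20 liver genes, a list for another organ, *Apoh* had 1. The nearest gene need not be the one that an enhancer acts on.

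Of the accessible elements that the study assigned to the nuclear receptor genes *Rxrg* and *Thrb*, a few fell into doubly bound enhancers. In 13LGS they were 9 of 74 for *Rxrg* and 2 of 55 for *Thrb*, and in mouse 2 of 15 and 0 of 15. For *Rxrg* the enhancers in 13LGS were Itri9:101846760-101850587 and Itri9:101888936-101893485, with Neurod1 folds of 9.69 and 7.49 and Otx2 folds of 5.52 and 2.80. In mouse the enhancer was chr1:167438481-167439504, with a Neurod1 fold of 4.92 and an Otx2 fold of 10.3. For *Thrb* it was Itri2:182651840-182652696 in 13LGS, with a Neurod1 fold of 10.8 and an Otx2 fold of 9.0. None lay over the elements of *Mef2c*, which were few. The number of elements differed widely between the genes and the species, so no contrast is drawn from these regions. Gene names of other 13LGS regions were not analysed here.

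Near the limits of the choice the values were low. The overlap with a factor peak was under 50 bp at 17 doubly bound enhancers in 13LGS and 26 in mouse, whose median H3K27ac fold was 3.18 and 3.38. Another 87 and 111 Otx2-only enhancers had a Neurod1 peak within 500 bp of the H3K27ac peak, with a median fold of 3.14 and 3.32. At 151 (9.11%) and 101 (6.19%) at least 1 of the 3 peaks had a −log10 q under 2. H3K4me3 lay within 1 kb of 31 and 40 doubly bound enhancers without touching them, and 528 and 584 further H3K27ac peaks with both factors did touch H3K4me3.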

How the data were processed

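CUT&RUN peak lists for H3K27ac, H3K4me3, H3K4me1, Otx2 and Neurod1 in P5 13LGS and P2 mouse retina were used, 10 lists from 36 libraries. Per the labels and the methods, the authors trimmed reads (cutadapt 3.5, Trim Galore 0.6.4), aligned them with Bowtie2 to HiC_Itri_2 or GRCm38, filtered them with SAMtools 1.12, removed duplicates by position with UMI-tools, and called peaks with MACS2 jointly over all libraries of a target against IgG at a q-value of 0.05. Joint calling leaves no replicate values. Of the deposited values, the fold enrichment over IgG (a ratio), the −log10 q and the summit offset were used, and the fold is that at the summit.

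Overlaps of at least 1 bp were found in Python 3.11.15 with pandas 2.3.3, and the code was tested on simulated intervals against bedtools 2.31.1 (0 differences). Where several peaks of a target touched an enhancer, the one of highest fold was used. Mouse TSSs came from GENCODE release M21, sequence from RefSeq GRCm38 through pysam, and intervals are Wilson intervals (scipy 1.17.1). No test was run, since the peak lists chose the regions and have no replicates. Regions named were the 5 of best combined rank by factor folds and the 3 of highest H3K27ac fold per species, those over elements of *Rxrg*, *Thrb* and *Mef2c*, the 12 genes with most regions, and up to 4 genes of each of 13 lists (ties by summed H3K27ac fold). For the photoreceptor factor list all genes were named, and other genes named besides were chosen after their values were seen. Some genes that this rule names are not reported here. The regions, gene lists and motifs were chosen with earlier results of these data known. Alternatives changed the overlap, the q and fold limits, the H3K4me3 gap, merging, the number of peaks, scaffolds, the TSS set and the motif distance.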

Additional observations from a re-analysis of the deposited data

How the results depend on the processing

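Of 174 values recomputed under alternatives, 130 stayed within 1.5 times the value given (numbers) or within its 95% interval (shares, medians and ratios), and 44 did not. A reversal was defined for the ratios only, as a change of side around 1, and 0 reversed. None moved with an overlap of at least 100 bp, a fold of at least 2.5, factor peaks that touch each other, no H3K4me3 within 1 kb, chromosomes only, or the closest pair of summits. In what follows, 13LGS comes before mouse. When every peak had to reach a −log10 q of 5, the number was 879 and 1022, the share of active enhancers 2.70% and 5.62%, the H3K4me1 share 97.3% and 98.3%, the summit distance 58 and 51 bp, the ratio of H3K27ac fold to enhancers with neither factor 1.35 and 1.20, and the ratio of Neurod1 fold to other peaks 1.17 and 1.18. At that limit the H3K4me1 share of Otx2-only enhancers was 98.4% and 98.7%, above that of doubly bound enhancers, whereas it was below it without the limit. The H3K4me1 share with neither factor was 82.6% and 74.5% at that limit, against 64.9% and 52.0% without it. The contrast with the doubly bound group was thus smaller among strong peaks. Within width bins, narrow to wide, that H3K27ac ratio was 1.02, 1.07, 1.11 and 1.17 in 13LGS and 1.0, 1.05, 1.11 and 1.123 in mouse. The H3K4me1 share was 93.8%, 97.0%, 99.3% and 100% in 13LGS, and in mouse 97.8% in the narrowest and 100% in the widest bin. With both summits inside the H3K27ac peak the share of active enhancers was 1.73% and 2.32%, the H3K27ac ratio 1.65 and 1.47, the 13LGS H3K4me1 share 99.2% and the mouse summit distance 52 bp. Merging H3K27ac peaks within 500 bp gave shares of 2.30% and 3.11%, and equal numbers of peaks in both species gave 2.95% and an H3K27ac ratio of 1.45 in 13LGS. The median TSS distance was 9158 bp to any annotated gene and 18428 bp among enhancers within 100 kb. TAATCC and CAGATG were found at 4.66% and 17.0% of summits within 75 bp, in 41.8% and 67.6% of whole factor peaks, and at 38.2% and 76.4% within 250 bp, a distance chosen after seeing the data. With neither factor they were at 4.79% and 13.3% of H3K27ac summits within 75 bp and at 16.3% and 36.7% within 250 bp. Within 75 bp TAATCC was at 6.06% of Otx2-only and CAGATG at 26.8% of Neurod1-only summits. The excess of TAATCC over enhancers with neither factor was thus absent within 75 bp. Apart from what each alternative's construction sets, the cause was not tested. No paired analysis was possible because each list pools the libraries of its target. Depth and replicate error are unknown.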
